A study of Arabidopsis thaliana with 12 samples.

Results

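Aliphatic glucosinolates are sulfur-rich defence compounds that Arabidopsis and its relatives make from methionine. Methionine is first lengthened by repeated rounds of chain elongation, the lengthened amino acid is then turned into the glucosinolate core, and the side chain is modified last. The number of elongation rounds sets whether a short-chain or a long-chain compound is formed, and R2R3-MYB transcription factors activate the genes of all 3 stages. The data on 10 of these genes, of 33602 in the deposited tables, are given here, chosen by name for their known roles in the pathway. They are the regulators MYB28 (AT5G61420) and MYB29 (AT5G07690), the chain elongation genes BCAT4 (AT3G19710), MAM1 (AT5G23010) and MAM3 (AT5G23020), the core structure genes CYP79F1 (AT1G16410), CYP79F2 (AT1G16400), CYP83A1 (AT4G13770) and UGT74C1 (AT2G31790), and the side chain gene FMOGS-OX1 (AT1G65860). All 10 passed the filter on low counts, as did 22604 genes in all.

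The libraries were made from polyA RNA of whole seedlings, 3 for each combination of genotype and treatment. The genotypes were ahl10-1, a T-DNA insertion line (Salk_073165) in the gene of a DNA-binding protein of the AT-hook family, and the Col-0 wild type (WT) that it is set against. Stressed seedlings were moved at 7 days of age to agar infused with polyethylene glycol (PEG) at a water potential of -0.7 MPa, which limits water uptake, and control seedlings were kept on agar at -0.25 MPa. Both were collected 96 h after transfer, without sugar in any medium, and the submitters describe the replicates as independent experiments. Libraries held 57996104 to 68555138 reads in genes, and each of the 10 genes had between 1174 and 32810 reads in every library, none of them multi-mapped. Levels are given as RPKM, that is reads relative to gene length and library size, scaled by TMM factors ("normalised RPKM"). AHL10 (AT2G33620) itself was at 15.4 ± 1.39 normalised RPKM in ahl10-1 under stress and 11.9 ± 1.20 in ahl10-1 in control, against 32.9 ± 0.651 in WT under stress and 23.9 ± 0.192 in WT in control (SD, n = 3 each), so reads on the gene were fewer in the mutant and not absent. One library, ahl10-1 control replicate 1, stands apart from the other 2 of its group for 6 of the 10 genes. The share of all tested genes that set it apart is not given here. The stress and genotype comparisons of the 10 genes are given with and without it. The correlations of deviations from group means and the list of genes with the most similar profile are given only with it. Because whole seedlings were pooled into bulk RNA, fewer cells that express a gene and less of its RNA per cell cannot be told apart.

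Several of the genes sit beside a close relative. In RefSeq's annotation of TAIR10.1, MAM1 (chr5:7703041-7706973) and MAM3 (chr5:7718118-7721866) are neighbouring coding genes on the plus strand, and their coding sequences are identical at 83.8% of 1512 aligned bases. CYP79F2 (chr1:5605044-5607498) and CYP79F1 (chr1:5608682-5612064) are likewise neighbours on the plus strand, with 91.4% identity over 1614 bases. MYB28 (chr5:24689069-24691187, minus strand) and MYB29 (chr5:2446669-2448584, plus strand) lie far apart on the same chromosome and are 77.4% identical over 987 bases. No multi-mapped reads were recorded for any of them, but how a read that fits both copies with a mismatch was placed is not given in the sources used here. The submitters' processing notes name TAIR10, and the tables carry no coordinates. UGT74C1 overlaps AT2G31800 on the other strand, which was at 24.1 to 42.2 normalised RPKM, and the non-coding AT2G08470. The library kit keeps strand, but whether the counting used it is not given, so the level of UGT74C1 is uncertain in that respect. BCAT4 overlaps AT3G19700, which was at no more than 0.0555 normalised RPKM.

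The 250 bases before the annotated start of the neighbours CYP79F1 and CYP79F2, which are set against each other below, and of CYP83A1, which held both motifs searched, are printed from RefSeq's TAIR10.1 on the strand of each gene, 5′ to 3′. Capitals mark a match to an AC element of the kind that MYB factors bind (the letters ACCTACC, the letters ACCAACC or the letters ACCTAAC) or to the G-box CACGTG that MYC factors bind, on either strand.
CYP79F1, chr1:5608432-5608681, plus strand: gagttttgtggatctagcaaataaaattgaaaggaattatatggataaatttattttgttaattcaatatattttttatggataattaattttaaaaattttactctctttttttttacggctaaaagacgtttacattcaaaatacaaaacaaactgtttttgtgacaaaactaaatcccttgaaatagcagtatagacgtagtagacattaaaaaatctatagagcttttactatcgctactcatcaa
CYP79F2, chr1:5604794-5605043, plus strand: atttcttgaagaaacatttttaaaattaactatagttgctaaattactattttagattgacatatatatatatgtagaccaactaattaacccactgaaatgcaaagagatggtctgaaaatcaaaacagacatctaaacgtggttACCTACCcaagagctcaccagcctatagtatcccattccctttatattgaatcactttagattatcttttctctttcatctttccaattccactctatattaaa
CYP83A1, chr4:7992430-7992679, minus strand: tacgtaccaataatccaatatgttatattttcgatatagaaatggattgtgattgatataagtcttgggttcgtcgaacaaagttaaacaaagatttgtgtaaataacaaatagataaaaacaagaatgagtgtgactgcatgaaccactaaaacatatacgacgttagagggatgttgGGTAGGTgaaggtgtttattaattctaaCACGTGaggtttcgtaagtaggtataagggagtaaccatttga
An AC element was present in 3 of the 9 windows searched. It stood 104 bases before the start of CYP79F2 as ACCTACC, 71 bases before CYP83A1 as GGTAGGT and 71 bases before FMOGS-OX1 as GTTAGGT. The G-box was present in 1 of 9, 43 bases before CYP83A1. Among the same windows of 27443 coding genes, 6.12% held an AC element and 6.49% a G-box. The CYP79F1 window, unlike that of CYP79F2, held neither.

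The first comparison asks how the genes respond to low water potential in each genotype. In both genotypes MAM3, CYP79F2 and MYB28 fell under stress, MAM3 and CYP79F2 with log2 fold changes beyond -1 in each genotype, and MYB29 was called higher. The other 6 genes, MAM1, BCAT4, CYP79F1, CYP83A1, UGT74C1 and FMOGS-OX1, did not pass the test. By edgeR's quasi-likelihood test with Benjamini-Hochberg adjustment over all tested genes, 4 of 10 were called in ahl10-1 (1 higher, 3 lower) at an adjusted p under 0.05, against 27.8% of all tested genes (14.2% higher, 13.5% lower). In WT, 4 of 10 were called (1 higher, 3 lower), against 24.2% of all tested genes (11.7% higher, 12.5% lower). At 10 genes, 4 called is near that background. The same 3 genes were called lower in both genotypes, as were 9.89% of all tested genes, and 1 was called higher in both, as were 9.9% of all tested genes. The ahl10-1 and WT values come from separate libraries. Median log2 fold changes of the 10 were 0.17 in ahl10-1 and 0.13 in WT, beside medians near 0 over all genes.

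**Figure D1:**
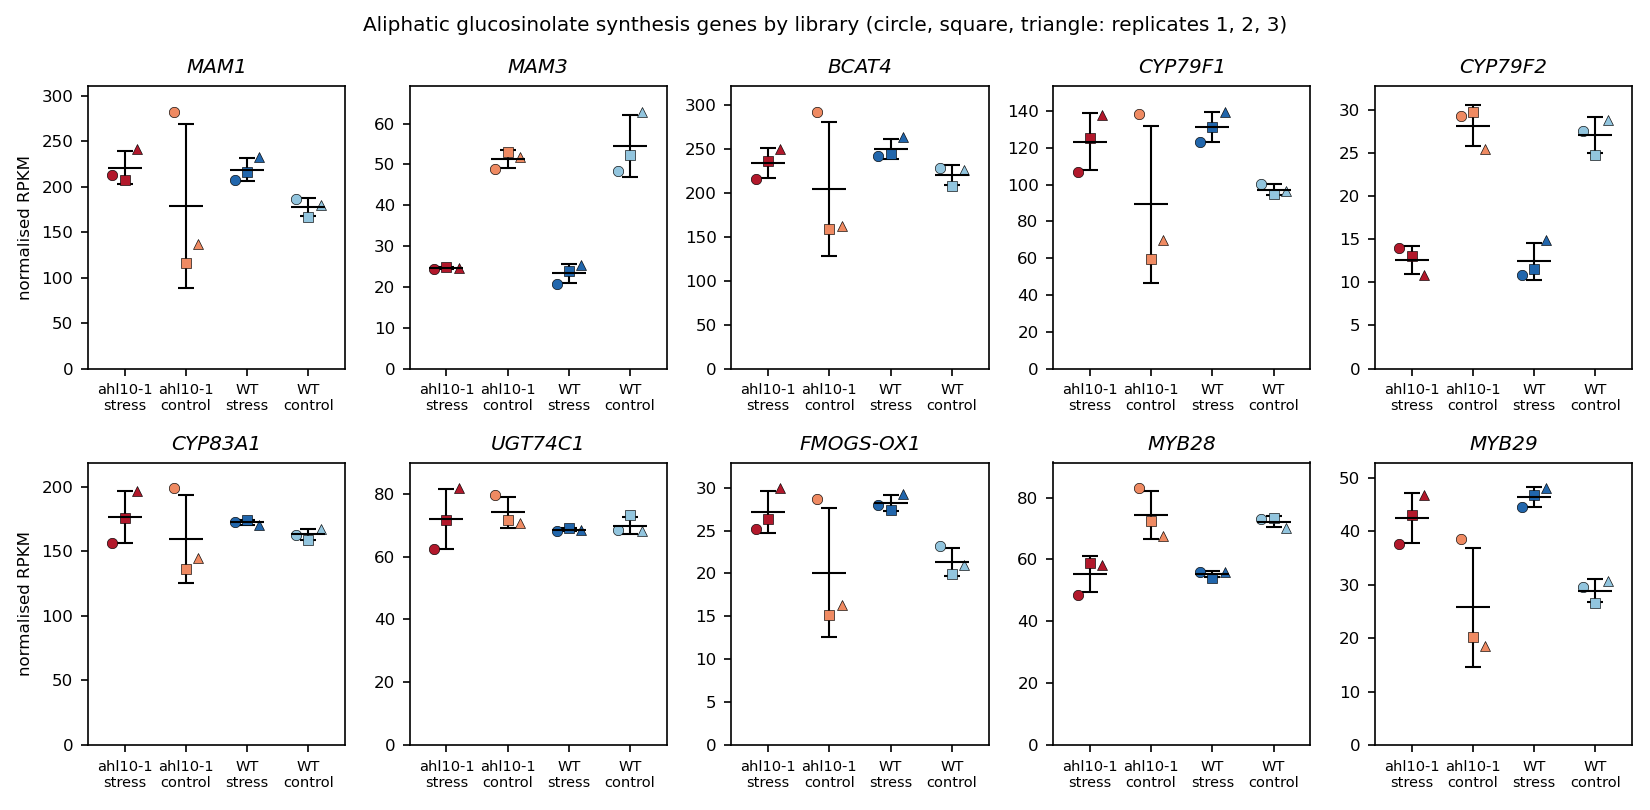
Normalised RPKM (linear axis from 0) of each of the 10 genes in every library, with ahl10-1 stress, ahl10-1 control, WT stress and WT control from left to right; bars are the mean and SD of 3 libraries. MAM3, CYP79F2 and MYB28 are lower under stress in every library of both genotypes, and ahl10-1 control replicate 1 (circle) lies far above replicates 2 and 3 for MAM1, BCAT4, CYP79F1, FMOGS-OX1 and MYB29.

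Among the regulators, MYB28 and MYB29 moved in opposite directions. MYB28, a main activator of the whole aliphatic pathway and needed for long-chain products, was at 48.4, 58.8 and 58.4 normalised RPKM in ahl10-1 under stress, against 83.1, 72.6 and 67.7 in ahl10-1 in control. In WT it was at 56.0, 54.0 and 55.8 under stress, against 73.1, 73.3 and 70.1 in control. Every stress library was below every control library of either genotype. MYB28 fell by 0.43 on the log2 scale in ahl10-1 (SE 0.09, adjusted p 0.00374, edgeR) and by 0.38 in WT (SE 0.09, adjusted p 0.00843).

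MYB29, an activator tied mainly to short-chain products, was at 37.6, 43.1 and 46.7 normalised RPKM in ahl10-1 under stress, against 38.5, 20.3 and 18.5 in ahl10-1 in control. The WT values were 44.4, 46.7 and 48.0 under stress, against 29.5, 26.5 and 30.6 in control. The WT groups do not overlap, while in ahl10-1 the first control library lies within the stress range. MYB29 was higher under stress by a log2 fold change of 0.72 in ahl10-1 (SE 0.22, adjusted p 0.0347) and of 0.68 in WT (SE 0.22, adjusted p 0.0472, edgeR). Both calls are near the threshold. Over all tested genes, ahl10-1 libraries that share a replicate number deviated weakly together from their group means (r 0.112, 0.110 and 0.188). For MYB29 they did not. Replicate 1 was lowest under stress (37.6) and highest in control (38.5), and replicate 3 the reverse (46.7 and 18.5). With the replicate number as a block in the ahl10-1 libraries alone, its log2 fold change was 0.80 with an adjusted p of 0.182 (edgeR). In ahl10-1 the call was also lost without any 1 of the stress libraries or of control replicates 2 and 3, where log2 fold changes ran from 0.53 to 0.80 and adjusted p up to 0.109. The WT call was lost in each of the 9 fits that left out a WT library or an ahl10-1 stress library, where adjusted p ran up to 0.134. Its log2 fold change stayed positive in all of these fits.

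In chain elongation, the copies MAM1 and MAM3 behaved differently. MAM3, a methylthioalkylmalate synthase that carries out all elongation rounds and is needed for long-chain products, was at 24.4, 24.8 and 24.6 normalised RPKM in ahl10-1 under stress, against 48.8, 53.1 and 51.8 in ahl10-1 in control. WT seedlings had 20.8, 23.8 and 25.5 normalised RPKM under stress, against 48.3, 52.4 and 62.9 in control. No stress library came near a control library. MAM3 fell by 1.06 on the log2 scale in ahl10-1 (SE 0.10, adjusted p 1.81e-05) and by 1.22 in WT (SE 0.10, adjusted p 7.99e-06, edgeR), the largest changes in level among the 10 genes together with those of CYP79F2.

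MAM1, the synthase of the early rounds that lead to short-chain products, was at 213, 208 and 241 normalised RPKM in ahl10-1 under stress, against 283, 116 and 137 in ahl10-1 in control. In WT it was at 208, 217 and 232 under stress, against 186, 166 and 180.2 in control. The WT stress libraries were all above the WT control libraries, and in ahl10-1 the control libraries spread both above and below the stress libraries. Its log2 fold changes, 0.31 in ahl10-1 (95% interval -0.26 to 0.87) and 0.30 in WT (-0.26 to 0.87), did not pass the test (adjusted p 0.411 and 0.428, edgeR).

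BCAT4, the aminotransferase that starts the methionine chain elongation, had the highest level of the 10 in WT in both treatments. It was at 216, 237 and 250.2 normalised RPKM in ahl10-1 under stress, against 293, 158 and 162 in ahl10-1 in control. The WT values were 242, 245 and 264 under stress, against 228, 208 and 226 in control. As for MAM1, the WT groups do not overlap and the ahl10-1 groups do. The log2 fold changes were 0.20 in ahl10-1 (adjusted p 0.481) and 0.18 in WT (adjusted p 0.532, edgeR), neither past the threshold.

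In core structure synthesis, the neighbouring cytochrome P450 genes also parted. CYP79F2, whose enzyme converts long-chain elongated methionines to aldoximes, was at 14.0, 13.0 and 10.8 normalised RPKM in ahl10-1 under stress, against 29.2, 29.7 and 25.4 in ahl10-1 in control. WT seedlings had 10.9, 11.5 and 14.9 normalised RPKM under stress, against 27.5, 24.7 and 28.8 in control. The groups are well apart in both genotypes. CYP79F2 fell by 1.16 on the log2 scale in ahl10-1 (SE 0.13, adjusted p 6.55e-05) and by 1.12 in WT (SE 0.13, adjusted p 9.89e-05, edgeR).

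CYP79F1, whose enzyme takes both short-chain and long-chain elongated methionines, was at 107, 125 and 138 normalised RPKM in ahl10-1 under stress, against 138, 59.8 and 69.6 in ahl10-1 in control. In WT it was at 123, 131 and 139.7 under stress, against 100.4, 94.8 and 96.6 in control. Its WT groups do not overlap, and its ahl10-1 control replicate 1 lies above every ahl10-1 stress library. The log2 fold changes of 0.47 in ahl10-1 (95% interval -0.08 to 1.01, adjusted p 0.189) and 0.43 in WT (-0.11 to 0.98, adjusted p 0.234, edgeR) did not pass the test.

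CYP83A1, which oxidises the aldoximes, was at 157, 176 and 197 normalised RPKM in ahl10-1 under stress, against 199, 136 and 145 in ahl10-1 in control. The WT values were 173, 174 and 170.1 under stress, against 163, 159 and 167 in control, a narrow gap. UGT74C1, a glucosyltransferase placed in the aliphatic pathway, was at 62.6, 71.5 and 81.8 normalised RPKM in ahl10-1 under stress, against 79.8, 71.7 and 70.8 in ahl10-1 in control. WT seedlings had 68.1, 69.2 and 68.5 normalised RPKM under stress, against 68.4, 73.2 and 68.2 in control. The UGT74C1 groups overlap in both genotypes, and all 6 of its WT libraries lie between 68.1 and 73.2. The log2 fold changes of CYP83A1 were 0.14 in ahl10-1 and 0.08 in WT, and those of UGT74C1 were -0.04 in ahl10-1 (95% interval -0.24 to 0.15) and -0.03 in WT (-0.22 to 0.17), with no edgeR call.

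In side chain modification, FMOGS-OX1, a flavin monooxygenase that oxidises the sulfur of the side chain, was at 25.2, 26.4 and 29.9 normalised RPKM in ahl10-1 under stress, against 28.7, 15.1 and 16.4 in ahl10-1 in control. In WT it was at 28.0, 27.4 and 29.3 under stress, against 23.2, 20.0 and 20.9 in control. Its WT groups do not overlap, and 1 ahl10-1 control library lies among the stress libraries. Its log2 fold changes of 0.44 in ahl10-1 (adjusted p 0.121) and 0.40 in WT (adjusted p 0.16, edgeR) fell short of the threshold.

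**Figure D2:**
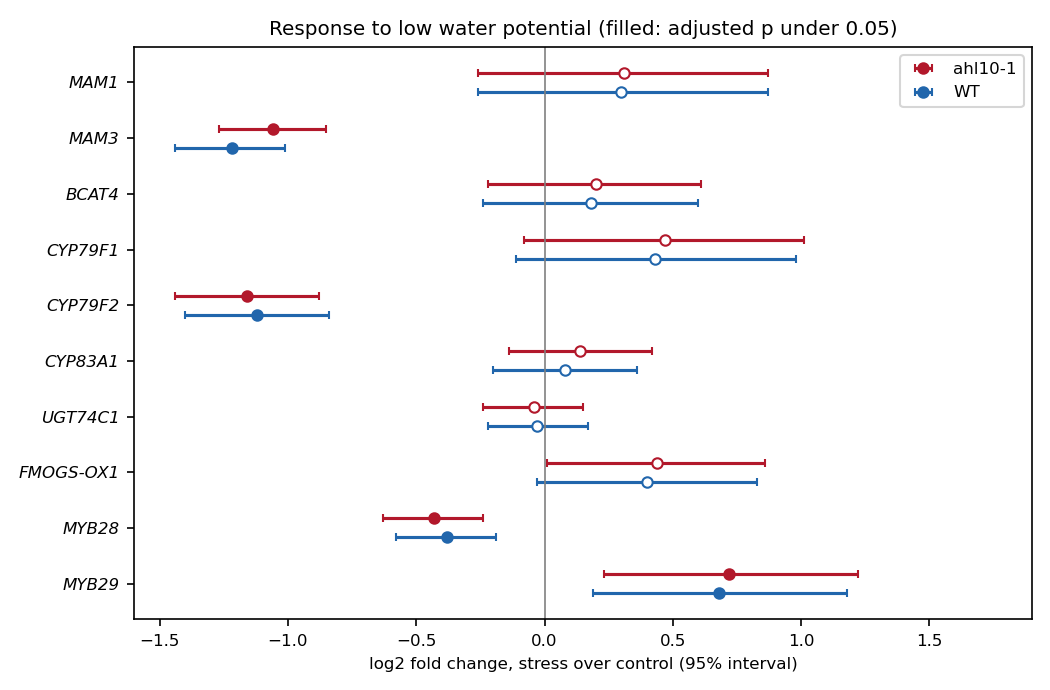
Log2 fold change, stress over control, of each gene in ahl10-1 (upper, red) and WT (lower, blue) with its 95% interval; filled points have an adjusted p under 0.05. MAM3, CYP79F2 and MYB28 lie below 0 and MYB29 above 0 in both genotypes, and the points of the genotypes lie close together for each gene.

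The order of levels also shifted with treatment. In WT under stress the means ran from BCAT4 (250.2 normalised RPKM) through MAM1 (219), CYP83A1 (172), CYP79F1 (131), UGT74C1 (68.6), MYB28 (55.3), MYB29 (46.4), FMOGS-OX1 (28.2) and MAM3 (23.3) to CYP79F2 (12.4). No neighbours in that order overlap between their libraries. In WT in control the order was BCAT4 (221), MAM1 (177), CYP83A1 (163), CYP79F1 (97.2), MYB28 (72.2), UGT74C1 (69.9), MAM3 (54.5), MYB29 (28.9), CYP79F2 (27.0) and FMOGS-OX1 (21.4). There, MAM1 and CYP83A1, MYB28 and UGT74C1, and MYB29 and CYP79F2 overlap between libraries. MAM3 thus stood above MYB29 and FMOGS-OX1 in control and below both under stress.

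The ratio of the paralogues was then taken within each library. MAM1 was 8.72, 8.40 and 9.80 times the level of MAM3 in ahl10-1 under stress, against 5.79, 2.19 and 2.65 times in ahl10-1 in control. In WT the ratio was 9.98, 9.11 and 9.13 under stress, against 3.85, 3.17 and 2.86 in control. All 6 stress libraries lie above all 6 control libraries. CYP79F1 was 7.65, 9.62 and 12.8 times the level of CYP79F2 in ahl10-1 under stress, against 4.74, 2.01 and 2.74 times in control, and in WT 11.3, 11.4 and 9.39 times under stress, against 3.65, 3.83 and 3.35 times in control. MYB29 was 0.776, 0.733 and 0.800 times the level of MYB28 in ahl10-1 under stress, against 0.463, 0.279 and 0.273 times in control, and in WT 0.793, 0.863 and 0.860 times under stress, against 0.404, 0.361 and 0.436 times in control.

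The log2 ratio was higher under stress by 1.47 in ahl10-1 and 1.52 in WT for MAM1 over MAM3, by 1.72 and 1.57 for CYP79F1 over CYP79F2 in the same genotypes, and by 1.23 and 1.07 for MYB29 over MYB28. A two-sided exact permutation test of the difference averaged over genotypes, with treatment exchanged within each genotype, gave p = 0.005 for each of the 3 pairs (0.005 after Benjamini-Hochberg adjustment over them), the smallest p that its 400 relabellings allow. The ratios were chosen after the single genes had been seen, so these p-values are not independent of that choice and add no separate support. Leaving out 1 library at a time kept the averages between 1.36 and 1.71, between 1.50 and 1.81, and between 1.08 and 1.27 for the 3 pairs in that order. A ratio shows that the copies changed unequally, and for these pairs the copy called on its own was MAM3, CYP79F2 or, in opposite directions, both MYB genes.

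**Figure D3:**
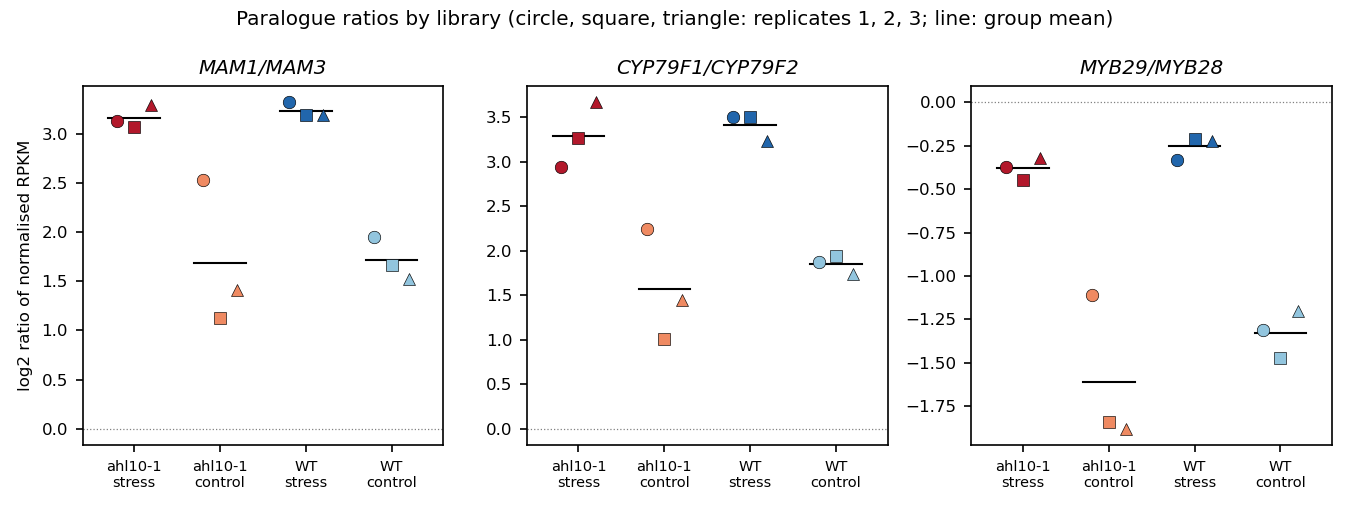
Log2 ratio of normalised RPKM of MAM1 over MAM3, CYP79F1 over CYP79F2 and MYB29 over MYB28 in each library (linear axis of log2 values, with ahl10-1 stress, ahl10-1 control, WT stress and WT control from left to right; lines are group means). In every panel all 6 stress libraries lie above all 6 control libraries, and among the control libraries ahl10-1 replicate 1 lies nearest to them.

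One library bears on much of the above. In ahl10-1 control replicate 1, MAM1 was at 2.23 times the mean of the other 2 ahl10-1 control libraries, CYP79F1 at 2.14 times, MYB29 at 1.99 times, BCAT4 at 1.83 times, FMOGS-OX1 at 1.82 times and CYP83A1 at 1.42 times. MYB28 (1.18 times), UGT74C1 (1.12), CYP79F2 (1.06) and MAM3 (0.931) were close to the other 2. For the first 6 of these genes that library lies above every WT control library, whereas replicates 2 and 3 lie below every WT control library. The share of all tested genes with that order is not given here. The difference was not limited to the 10 genes. The chi-square over its degrees of freedom between library pairs was 106 and 83.8 for replicate 1 against replicates 2 and 3. Between replicates 2 and 3 it was 48.7. The labels give no difference between these 3 libraries.

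That library was singled out by its levels of these same 10 genes. Fits without it therefore show how much it weighs and add no separate support for the calls. Without that library, the edgeR fit called 9 of the 10 genes in ahl10-1 (6 higher, 3 lower), against 28.0% of all tested genes in that fit (13.7% higher, 14.3% lower). MYB29 was then higher under stress by a log2 fold change of 1.13, CYP79F1 by 0.93, MAM1 by 0.80, FMOGS-OX1 by 0.79, BCAT4 by 0.55 and CYP83A1 by 0.33, with adjusted p from 1.71e-05 for MYB29 to 0.0207 for CYP83A1. Leaving out ahl10-1 control replicate 2 instead gave smaller values. They were 0.57 for MYB29, 0.25 for CYP79F1, 0.07 for MAM1, 0.27 for FMOGS-OX1, 0.04 for BCAT4 and 0.04 for CYP83A1. In WT the fit without ahl10-1 control replicate 1 called 7 (4 higher, 3 lower), against 26.2% of all tested genes (12.6% higher, 13.6% lower). The WT log2 fold changes were unchanged but the estimated spread was smaller, since all libraries of the fit share it. CYP79F1, FMOGS-OX1 and MAM1 were added. The WT libraries fitted alone also gave 7 (4 higher, 3 lower), against 24.2% of all tested genes (11.6% higher, 12.6% lower), and DESeq2 on them gave 8, against 29.1%. With every library kept, 3 of the 10 genes in ahl10-1 did not overlap between stress and control libraries (all lower), against 40.2% of all tested genes (19.1% lower). In WT, 9 of 10 did not (6 higher, 3 lower), against 43.3% of all tested genes (21.8% higher, 21.6% lower). The authors' deposited table for WT has 7 of the 10 at an adjusted p under 0.05, against 26.8% of the genes given an adjusted p there. It lists MYB29 at a log2 fold change of 0.67, CYP79F1 at 0.43, FMOGS-OX1 at 0.40 and MAM1 at 0.30 above control, and MYB28 at -0.38, CYP79F2 at -1.08 and MAM3 at -1.19.

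The genes fall into 2 sets by how they vary over the 12 libraries. MAM1, BCAT4, CYP79F1, CYP83A1, FMOGS-OX1 and MYB29 had Pearson r of log2 CPM between 0.79 and 0.99 over their 15 pairs, and MAM3, CYP79F2 and MYB28 between 0.87 and 0.97 over 3 pairs. Between the sets r ran from -0.80 to -0.07. These values describe libraries that differ in treatment and share ahl10-1 control replicate 1. Without that library r within the first set ran from 0.86 to 0.98 and between the sets from -0.87 to -0.45. As deviations from group means the first set stayed close, at 0.91 to 0.98, whereas MAM3, CYP79F2 and MYB28 did not, at -0.24 to 0.45. Between the sets r of these deviations ran from -0.27 to 0.79. MYB28 was at 0.6 to 0.79 with the genes of the first set, against -0.24 with MAM3 and -0.12 with CYP79F2. Its place beside MAM3 and CYP79F2 thus came from differences between groups. The deviations include ahl10-1 control replicate 1. Over the 12 libraries UGT74C1 was in neither set, with its highest r, 0.54, to CYP83A1. As deviations its highest r was 0.82, to MYB28.

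**Figure D4:**
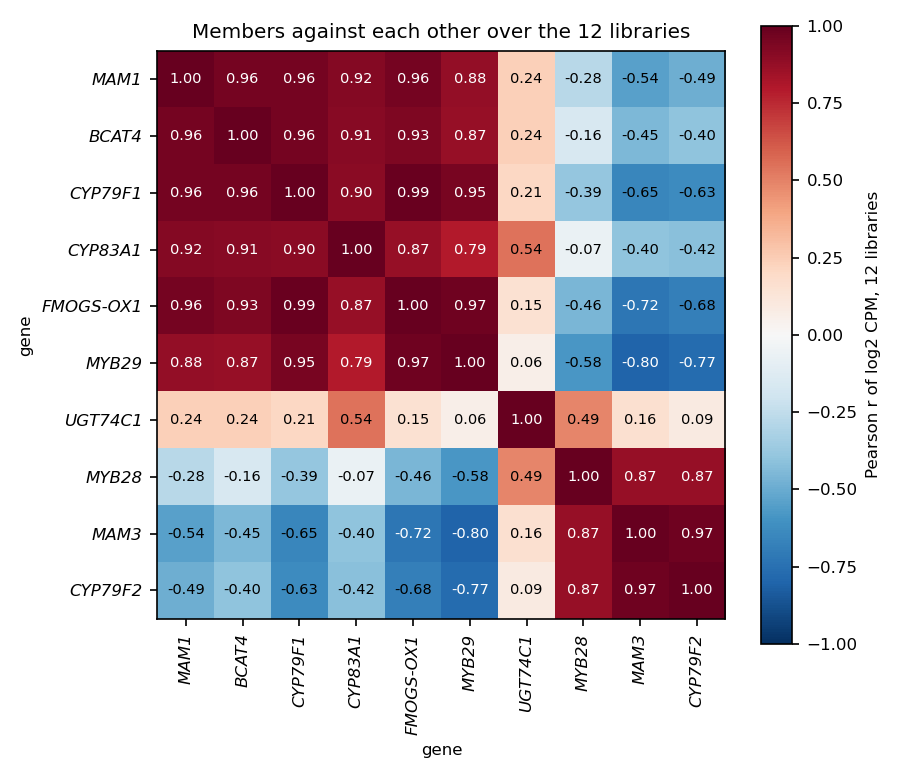
Pearson r of log2 CPM between each pair of the 10 genes over the 12 libraries, written in each cell (red positive, blue negative). The 6 genes at the upper left form a block of r from 0.79 to 0.99, and MYB28, MAM3 and CYP79F2 at the lower right one of 0.87 to 0.97.

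The genes whose profile over the 12 libraries was most like the mean profile of the 10 were BGLU33 (r 0.933), AT1G72810 (0.914), IPMI2 (0.907), DJ1F (0.904), AT5G58390 (0.901), SOT18 (0.894), OLEO4 (0.891), IPMI1 (0.887), AT2G25050 (0.885) and AT2G28580 (0.883), out of 19991 genes. IPMI2 and IPMI1, small subunits of the isopropylmalate isomerase of chain elongation, and SOT18, a sulfotransferase that completes the core, belong to the pathway. The mean profile was highest in ahl10-1 control replicate 1 (1.18 SD units) and lowest in ahl10-1 control replicates 2 (-0.85) and 3 (-0.75). It averages genes that were higher under stress with genes that were lower. In WT it ran from -0.08 to 0.21 under stress and from -0.05 to 0.1 in control. Likeness to it thus reflects the spread among the ahl10-1 libraries more than the treatment.

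The second comparison asks whether ahl10-1 differs from WT. None of the 10 genes was called between ahl10-1 and WT under stress, in control, or in the interaction of genotype with treatment by edgeR, and none had an unadjusted p under 0.05. DESeq2 also called 0 in each. The background was low too, at 0.0265% of all tested genes under stress, 0.0177% in control and 0.0% for the interaction. At an unadjusted p under 0.05 it was 848, 1208 and 320 of 22604 genes in the same order. Under stress the log2 fold changes of ahl10-1 over WT ran from -0.13 for MYB29 to 0.08 for MAM3, and in control from -0.16 for MYB29 to 0.08 for UGT74C1. For MAM1 in control, the 95% interval reached from -0.55 to 0.57, so differences inside it were not excluded. Interaction values, the log2 response of ahl10-1 minus that of WT, ran from -0.05 to 0.17. The authors' deposited tables likewise have 0 of the 10 at an adjusted p under 0.05, against 0.358% of the genes given one under stress and 0.0697% in control, with log2 fold changes from -0.10 to 0.06 under stress and from -0.08 to 0.08 in control.

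The control comparison depends on the library that stands apart. Without ahl10-1 control replicate 1, CYP79F1 had a log2 fold change of -0.59 in ahl10-1 against WT (adjusted p 0.102, edgeR), MYB29 of -0.58 (0.0941), MAM1 of -0.49 (0.155), BCAT4 of -0.46 (0.102), FMOGS-OX1 of -0.44 (0.142) and CYP83A1 of -0.22 (0.314). None passed the threshold, which 0.0527% of all tested genes did in that fit. These 6 genes, whose levels set that library apart, then had an unadjusted p under 0.05. That count follows in part from the choice of library and adds no separate support. The share of all tested genes at an unadjusted p under 0.05 is not given for this fit. With all 12 libraries it was 1208 of 22604 genes. MAM3, CYP79F2, MYB28 and UGT74C1 stayed between -0.06 and 0.03. In the interaction without that library, log2 values ran from -0.01 to 0.50, with 5 of 10 at an unadjusted p under 0.05 and none called, as for all tested genes (0.0%). All 5 were among the 6 genes that set the library apart. With all 12 libraries, 320 of 22604 tested genes had an unadjusted p under 0.05 in the interaction.

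Other genes of the pathway were described from lists by their role. Of 22 tested genes of aliphatic synthesis outside the 10, 6 were called higher under stress in ahl10-1 and 6 in WT, and none was called lower in either, against 14.2% of all tested genes higher and 13.5% lower in ahl10-1 and 11.7% higher and 12.5% lower in WT. FMOGS-OX2, a relative of FMOGS-OX1 with the same kind of activity, was at 34.2 ± 1.24 normalised RPKM in ahl10-1 under stress, against 12.4 ± 0.542 in ahl10-1 in control, and at 29.3 ± 1.60 in WT under stress, against 11.3 ± 2.00 in WT in control (SD, n = 3 each). It was higher by a log2 fold change of 1.47 in ahl10-1 and 1.37 in WT. AOP2, annotated as a transcribed pseudogene in this accession and named for a side chain dioxygenase, was higher by 0.81 in ahl10-1 and 0.80 in WT. GSTU20, a glutathione transferase of the core steps, was higher by 0.67 in ahl10-1 and 0.72 in WT, and AT2G25450 by 0.57 and 0.48 in the same genotypes. FMOGS-OX4 was called in ahl10-1 alone (0.95, against 0.47 in WT, not called) and SCPL17 in WT alone (1.22, against 0.91 in ahl10-1, not called), and neither was called in the interaction. The GSTU20 call was lost without replicate 2 or 3 of either treatment in ahl10-1 and without replicate 1 or 2 of either treatment in WT, and without ahl10-1 control replicate 1 its log2 fold change in ahl10-1 was 1.03. The AOP2 call was lost without ahl10-1 control replicate 3 and without WT control replicate 2, and the WT call of SCPL17 without replicate 2 or 3 of either treatment. BZO1 was called in both, on 10 to 30 reads per stress library and 2 to 6 per control library. AOP3, with at most 2 reads, was not tested. Chain elongation genes outside the 10 (IIL1, IPMI2, IPMI1, IPMDH1, BCAT3 and the transporter BASS5) were not called.

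Of 10 other regulators and genes of sulfate activation, 0 were called by edgeR in either genotype. Of all tested genes, 27.8% were called in ahl10-1 and 24.2% in WT. At an unadjusted p under 0.05 there was 1 of the 10 in ahl10-1 and 0 in WT. Of 22604 tested genes, 8902 in ahl10-1 and 8295 in WT had such a p. MYB76, the MYB gene next to MYB29, had a log2 fold change of 0.63 in ahl10-1 and 0.71 in WT. Of the 3 transporters, GTR2 was called higher in ahl10-1 (0.29) and none in WT. The GTR2 call was lost without replicate 2 or 3 of either treatment in ahl10-1.

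Among 15 breakdown genes, 6 were called higher and 2 lower in ahl10-1, and 6 higher and 2 lower in WT, beside the same shares of all tested genes (14.2% higher and 13.5% lower in ahl10-1, 11.7% higher and 12.5% lower in WT). ESP, a specifier protein that steers breakdown towards nitriles, was at 27.1 ± 3.00 normalised RPKM in ahl10-1 under stress, against 7.50 ± 0.829 in ahl10-1 in control, and at 21.2 ± 1.63 in WT under stress, against 6.50 ± 0.733 in WT in control. Its log2 fold changes were 1.86 in ahl10-1 and 1.71 in WT, and those of the nitrilase NIT2 were 1.80 and 1.75 in the same genotypes. TGG2, a myrosinase, was higher by 0.52 in ahl10-1 and 0.49 in WT, and the nitrilase NIT1 by 0.65 and 0.55. The TGG2 call was lost in 5 of 25 alternatives in ahl10-1, without control replicate 1 or 2 or stress replicate 2 or 3 among them, and in 5 of 24 in WT, without WT control replicate 1 or 3, WT stress replicate 2 or 3 or ahl10-1 stress replicate 2. NSP3, a nitrile-specifier protein, fell by 1.45 in ahl10-1 and by 1.94 in WT, and PEN2, an atypical myrosinase, by 0.43 and 0.50.

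In the indolic branch, which starts from tryptophan, 4 of 13 genes were called lower, 2 higher and 7 not called in ahl10-1, and 4 were called lower, 1 higher and 8 not called in WT, against 13.5% of all tested genes lower and 14.2% higher in ahl10-1 and 12.5% lower and 11.7% higher in WT. CYP81F2, which modifies the indole ring, fell by 2.75 in ahl10-1 and by 2.24 in WT, and the regulator MYB51 by 1.42 and 1.53, while CYP79B2, the entry enzyme, was higher by 0.42 and 0.25. The MYB51 call was lost in 5 of 25 alternatives in ahl10-1, those without control replicate 1 or 3 or any 1 stress library, and in 3 of 24 in WT, among them those without stress replicate 1 or 2. Without WT control replicate 1, MYB51 had a log2 fold change of -0.94 in WT. The CYP79B2 call in WT was near the threshold (adjusted p 0.0493, edgeR) and was lost in 13 of 24 alternatives, with log2 fold changes from 0.17 to 0.32 over all of them, and 7 of these 13 each left out 1 library (WT stress replicate 1 or 3, WT control replicate 1 or 2, ahl10-1 stress replicate 1 or 2, or ahl10-1 control replicate 2). Over all 63 tested genes of these lists, 15 were called higher and 6 lower in ahl10-1, and 13 higher and 6 lower in WT; in the genotype comparisons and the interaction edgeR called 0.

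**Figure D5:**
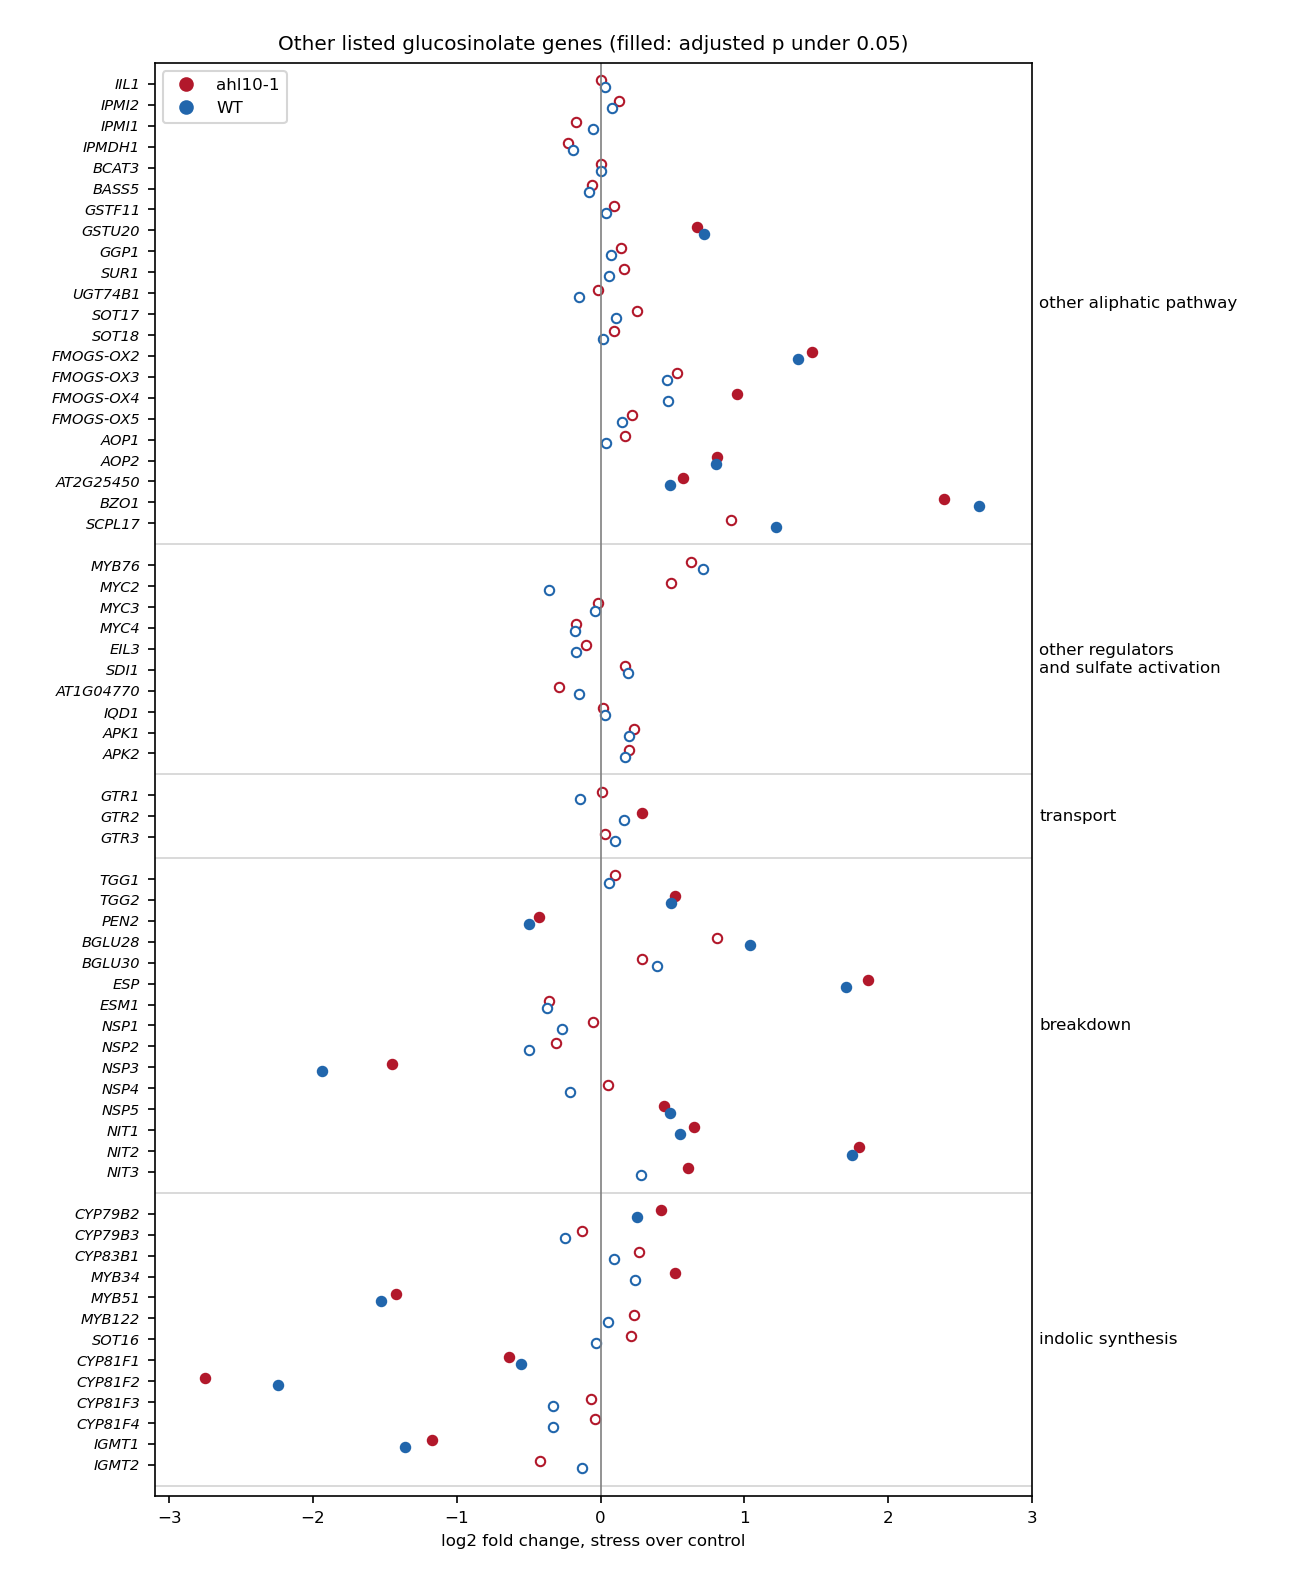
Log2 fold change, stress over control, of 63 other glucosinolate genes by role, in ahl10-1 (red, upper point) and WT (blue, lower point); filled points have an adjusted p under 0.05. FMOGS-OX2, AOP2, GSTU20 and AT2G25450 among the aliphatic genes and ESP and NIT2 among the breakdown genes lie to the right in both genotypes, and CYP81F2, MYB51 and NSP3 to the left.

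Sums of shoot and root markers differed in part with treatment. The summed level of 6 photosynthetic shoot markers ran from 13665 to 20609 normalised RPKM in ahl10-1 under stress, against 16217 to 26605 in ahl10-1 in control, and from 14098 to 15370 in WT under stress, against 16180 to 20386 in WT in control; 1 was called lower in ahl10-1 and 3 in WT. The sum of 6 root markers ran from 82.1 to 99.8 in ahl10-1 under stress, against 51.6 to 65.7 in ahl10-1 in control. In WT it ran from 75.9 to 93.8 under stress, against 47.6 to 93.2 in control. Of the 6 root markers, 2 were called higher in ahl10-1 and 1 in WT. A positive log2 fold change was seen for 5 of them in ahl10-1 and 4 in WT. Of all tested genes, 14.2% were called higher and 13.5% lower in ahl10-1, and 11.7% and 12.5% in WT. Sums of 5 vascular markers stayed between 151 and 198 in all libraries. Those of 3 myrosin cell and guard cell markers stayed between 1516 and 2411. Those of 3 flower markers were at or under 2.91, with 1 flower marker at 0 in a library of ahl10-1 under stress. These sums hide single calls. Of the vascular markers, 1 was called higher and 1 lower in ahl10-1, and 2 higher and 1 lower in WT. In each genotype 1 myrosin cell and guard cell marker was called higher. Among the flower markers 1 was called higher and 1 lower in each genotype. The part of these tissues in the response of the 10 genes was not tested.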

How the data were processed

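Per the labels, strand-specific libraries were made from oligo-dT selected RNA of whole seedlings, 3 per group. The submitters' processing notes name bcl2fastq 1.8.4, CASAVA, Bowtie2, DESeq2 and TAIR10, with no role or order. For each library the authors deposited estimated counts of reads per gene, the gene length, RPKM and, per the file headers, a fraction that gives each gene's multi-mapped share. These deposited estimated counts were not whole in 3.98% to 4.56% of genes, and were rounded. Between 1.25% and 2.33% of a library's reads were multi-mapped. The deposited RPKM were used for alternatives. The authors also deposited 3 tables of comparisons with log2 fold changes, p-values and a base mean and test statistic (scores with no fixed range, not used), in the columns of DESeq2.

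The test was that of edgeR 4.0.16 under R 4.3.3 (robust quasi-likelihood, TMM, filterByExpr with a minimum count of 10 and a minimum total of 15) in 1 model of 4 group means over all 12 libraries, with 8 residual degrees of freedom. P-values were adjusted by Benjamini-Hochberg over 22604 genes and called at an adjusted p under 0.05. The biological coefficient of variation was 0.144. Normalised RPKM is TMM-scaled CPM per kb of the deposited length. Intervals are 95% intervals of the fitted log2 fold change. Libraries of a group differed by more than sampling noise (chi-square over its degrees of freedom, 15.7 to 106), so each counted as 1 sample. At this depth counting error is small for the 10 genes.

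Alternatives were other scaling factors, other filters, DESeq2 1.42.0, edgeR without robust estimation, limma 3.58.1 on log2(RPKM + 1) and log2(RPKM + 0.1), the replicate number as a block, the compared groups alone, removal of multi-mapped reads, and each library left out. The replicate numbers come from the sample titles, and the labels do not say what they mark. Over all tested genes, same-numbered ahl10-1 stress and control libraries deviated weakly together from their group means (correlations 0.112, 0.110 and 0.188). In WT these correlations were -0.004, 0.016 and -0.04. A block fit of the ahl10-1 libraries alone was therefore added after the data were seen. DESeq2 on the compared groups alone and the paralogue ratios were also added then. The members and lists were chosen with earlier results of these data known. Named genes outside the 10 were those called in a list, up to 6 per comparison by size of change, and the 10 genes of at least 1 CPM most like the members' mean profile; MYB76, AOP3 and the uncalled elongation genes were named after their values were seen. The window before the start of 1 of the 10 genes is not reported here. Symbols, loci and sequences come from RefSeq's TAIR10.1, in which 32835 identifiers matched. The fits were tested on simulated data. Figures were drawn with matplotlib 3.10.9 under Python 3.11.15.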

Additional observations from a re-analysis of the deposited data

How the results depend on the processing

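The falls of MAM3, CYP79F2 and MYB28 kept their call in both genotypes under all alternatives that were run. Their log2 fold changes were, in ahl10-1, -1.09 to -0.95, -1.24 to -1.02 and -0.50 to -0.35, and in WT -1.30 to -1.11, -1.27 to -1.01 and -0.41 to -0.31. The number of the 10 genes called in WT was 7 with the compared groups alone (24.2% of all tested genes) and 8 with DESeq2 on the compared groups alone (29.1%). Leaving out 1 library at a time gave 3 to 9 called in ahl10-1 and 3 to 7 in WT (the highest without ahl10-1 control replicate 1), beside 19.9% to 28.4% and 15.7% to 26.2% of all tested genes, and 0 to 1 other listed genes called between genotypes in control. MYB29 was not called without a filter on low counts (adjusted p 0.0506 in ahl10-1 and 0.0675 in WT), nor in ahl10-1 with the compared groups alone (0.0964). With the replicate number as a block over all 12 libraries, 4 genes were called in ahl10-1 (28.6% of all tested genes) and 3 in WT (24.8%). In WT, MYB29 then had an adjusted p of 0.0598 (edgeR). The block over the ahl10-1 libraries alone gave 3 (30.6% of all tested genes), without MYB29, and it changed no other call among the 10. The uncalled log2 fold change of UGT74C1 changed sign, to 0.03 in ahl10-1 and 0.04 in WT on log2(RPKM + 1) and on log2(RPKM + 0.1). With upper-quartile scaling it was 0.01 in WT. With 1 library left out it ran from -0.15 to 0.05 in ahl10-1 and from -0.04 to 0.01 in WT. The cause was not tested. Over all single-gene values and alternatives, 1302 kept their direction and side of the threshold, 94 lost a call, 15 gained one and 8, all of UGT74C1, changed sign; the 39 alternatives for the paralogue ratios kept both. Depth did not limit the 10 genes; BZO1 and AOP3 had too few reads for a firm level.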
